A study of Brachypodium distachyon with 6 samples.

Results

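*BdPDF1*, *BdHDG2-like* and *BdSPL10* are 3 genes that mark the outer cell layer of the young grass leaf or the hair cells that form in it. They were taken by identifier (BdiBd21-3.2G0082000, BdiBd21-3.3G0192600 and BdiBd21-3.1G0421000) from the gene table of the study and found by the same identifier among the 36647 genes of a deposited count table. The table holds 6 bulk RNA-seq libraries of the leaf developmental zone, the base of a young leaf in which cells still divide and differentiate, from soil-grown wild type *Brachypodium distachyon* Bd21-3 plants that were 3 wk old. In 3 libraries the RNA came from protoplasts, which are cells freed by wall-digesting enzymes, here Cellulase Onozuka RS and Macerozyme R10, and each preparation pooled 10 leaf zones. In the other 3 the tissue was not digested, and each sample held 5 leaf zones. The study describes the 3 samples of each condition as biological replicates and made the comparison to find which genes protoplasting affects. The titles and library names of the samples give the groups used here, but their treatment field gives the opposite condition in each of the 6 cases. For this reason the text speaks of libraries labelled protoplasted or labelled non-protoplasted, and every direction rests on the titles. Which of these entries is right was not tested.

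The leaf epidermis derives from the protoderm, a single outer layer in which the first identity genes are switched on early. In *Arabidopsis thaliana*, homeodomain-leucine zipper proteins of class IV, among them PDF2 and HDG2, bind a short promoter element called the L1 box and act in the identity of this layer, and *PDF1*, a gene for a putative cell wall protein of the outer layer, carries such a box. In grasses some cell files of the epidermis form prickle hairs, and in rice and maize SQUAMOSA promoter-binding-like (SPL) transcription factors act together with a WUSCHEL-related homeobox gene, *WOX3*, in hair formation. *BdHDG2-like* and *BdPDF1* thus stand for the layer as a whole and *BdSPL10*, a homolog of rice *OsSPL10*, for the hair cells.

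Counts on genes ran from 17482438 to 24621927 per library. Expression is given as CPM, the count of a gene relative to the library size after scaling by TMM, a normalization that assumes that most genes do not change. The floor of 3 counts, which takes in counting error alone, corresponds to 0.106 to 0.205 CPM. Of 31335 genes with counts, 23677 were tested with edgeR's quasi-likelihood test, and the p-values were adjusted over all of them by Benjamini-Hochberg. At an adjusted p under 0.05, 38.7% of the genes tested were higher and 38.3% were lower in the libraries labelled protoplasted, and 5.09% were higher with a log2 fold change above 3, against 12.6% that were lower with one below -3. Over all genes tested the log2 fold change had a median of 0.04, and the groups did not overlap in 80.5% of them, so that a call or a gap between the groups was common. More genes were called than not, although TMM assumes that most do not change. The TMM factors were 1.14 to 1.15 in the libraries labelled protoplasted and 0.84 to 0.90 in those labelled non-protoplasted. The knotted-type homeobox genes *BdKN1* and *BdKNAT1-like*, which mark the shoot apical meristem, had 0 counts in all 6 libraries.

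*BdPDF1* and *BdSPL10* rose in the libraries labelled protoplasted, and *BdHDG2-like* did not pass the test. All 3 genes passed the filter for testing. *BdSPL10* passed it only through the libraries labelled protoplasted, so that it could only be called higher. Of the 3 genes, 2 were called, both higher with a log2 fold change above 3. This is to be read beside 38.7% of all genes called higher and 5.09% called above 3. The plot of CPM by library shows the 6 values of each gene.

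**Figure D1:**
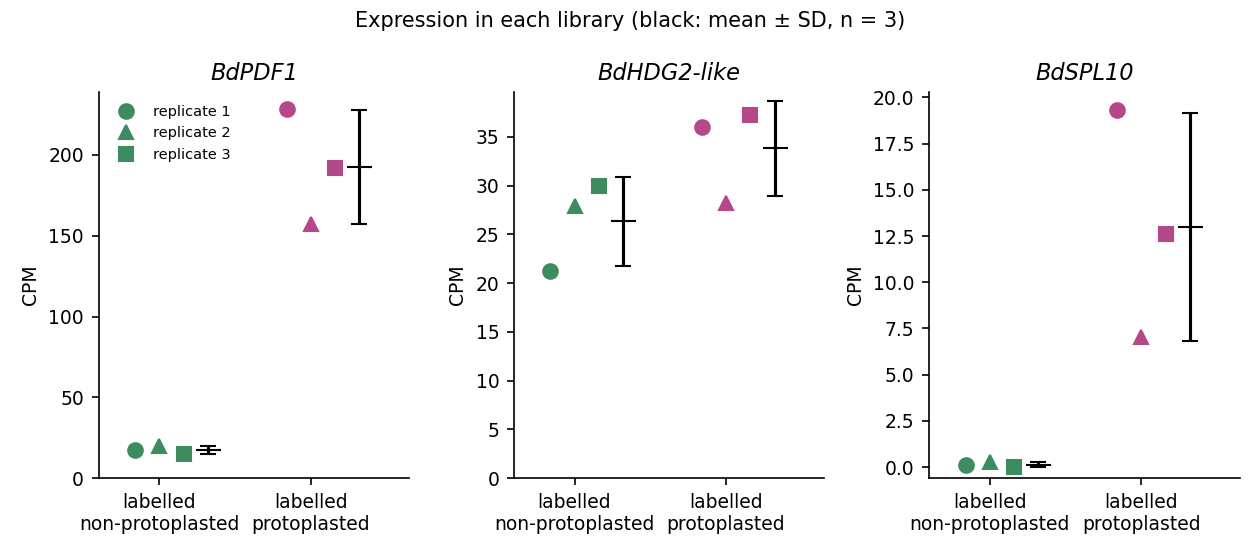
Expression in CPM (vertical axes, linear, each with its own range) of *BdPDF1*, *BdHDG2-like* and *BdSPL10* in the 3 libraries labelled non-protoplasted (green) and the 3 labelled protoplasted (magenta), with symbols for the replicate numbers and the mean ± SD in black. *BdPDF1* stood at 157 to 228 CPM against 15.1 to 19.8, *BdSPL10* at 7.01 to 19.3 against at most 0.278, and the 2 groups of *BdHDG2-like* overlapped.

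*BdPDF1*, the outer layer gene, had 228, 157 and 192 CPM in the libraries labelled protoplasted 1, 2 and 3, from 5976, 4441 and 5183 counts. It had 17.6, 19.8 and 15.1 CPM in the libraries labelled non-protoplasted, from 258, 428 and 320 counts. The groups did not overlap, and the lowest protoplasted value was far above the highest non-protoplasted one. The means were 192 ± 35.5 and 17.5 ± 2.34 CPM (SD, n = 3 each), a fold of 11.0. The log2 fold change was 3.46 with a standard error of 0.18 and a 95% interval of 3.05 to 3.86 (adjusted p = 1.59e-07, edgeR). In the order of all genes tested by log2 fold change, *BdPDF1* was at rank 870, the 96.3 percentile, which would be the 3.67 percentile if the treatment field were right. In bulk samples a larger share of cells of a type and more RNA per cell cannot be told apart, and this holds for each gene described here.

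*BdHDG2-like*, the class IV homeodomain gene, had 36.1, 28.3 and 37.2 CPM in the libraries labelled protoplasted 1, 2 and 3, from 944, 798 and 1006 counts. It had 21.2, 27.9 and 29.9 CPM in those labelled non-protoplasted, from 311, 604 and 633 counts. The groups overlapped, since protoplasted replicate 2 lay below non-protoplasted replicate 3. The means were 33.9 ± 4.88 and 26.4 ± 4.57 CPM (SD, n = 3 each), a fold of 1.28. The difference of 0.36 on the log2 scale (edgeR adjusted p = 0.07) had a standard error of 0.16 and a 95% interval of -0.01 to 0.72. With TMM scaling this leaves room for no difference and for a rise of up to 0.72, but not for one of the size of *BdPDF1*. The interval takes in no error of the scaling. It stood at the 58.5 percentile of all genes tested.

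The call for *BdHDG2-like* depended on the scaling and on 1 library. It passed the test with scaling by library size only (log2 fold change 0.73, edgeR adjusted p = 0.00305) and by the upper quartile (0.66, adjusted p = 0.00465). It also passed in limma-trend fits on log2(TPM + 1) (0.61, adjusted p = 0.0159) and on log2(TPM + 0.1) (0.65, adjusted p = 0.0188). These 4 settings moved the median of all genes up by 0.38, 0.30, 0.21 and 0.27, and among the called genes the share of higher ones went from 50.2% to 61.2%, 59.4%, 58.6% and 58.6%. Relative to the median of all genes in each setting, the value of *BdHDG2-like* was 0.32 with TMM and 0.31, 0.32, 0.36 and 0.33 in these 4 settings, so that its place among the other genes hardly moved. Without protoplasted replicate 2, its lowest protoplasted library, the log2 fold change was 0.49 (edgeR adjusted p = 0.0230), and without non-protoplasted replicate 1, its lowest library of all, it was 0.21 (adjusted p = 0.265).

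**Figure D2:**
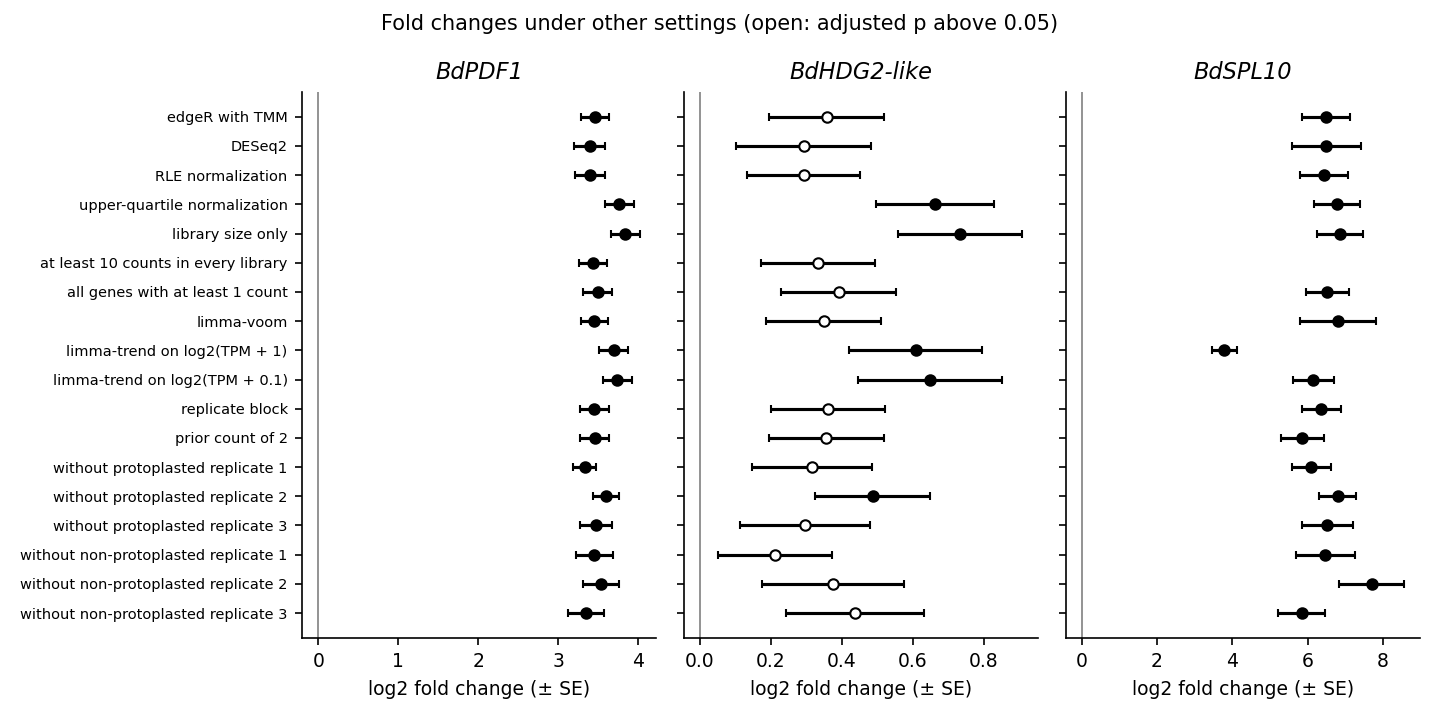
Log2 fold changes (horizontal axes, points with ± SE, each panel with its own range) of *BdPDF1*, *BdHDG2-like* and *BdSPL10* with edgeR and TMM (top) and under each other normalization, filter, tool or set of libraries (vertical axis, without the exchange of the groups), with open symbols for an adjusted p above 0.05. *BdPDF1* stayed between 3.33 and 3.84, *BdSPL10* between 3.79 and 7.69, and *BdHDG2-like* between 0.21 and 0.73 with symbols of both kinds.

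*BdSPL10*, the hair cell gene, had 506, 198 and 341 counts in the protoplasted replicates 1, 2 and 3 as labelled, which is 19.3, 7.01 and 12.6 CPM. It had 2, 6 and 0 counts in the libraries labelled non-protoplasted, which is 0.136, 0.278 and 0 CPM. Non-protoplasted replicate 3, with 0 counts among 23793983, allows a level of up to 0.142 CPM by a floor of 3 counts. The gene was thus near the limit of detection in all libraries labelled non-protoplasted and clearly expressed in all those labelled protoplasted, with no overlap. The means were 13.0 ± 6.16 and 0.138 ± 0.139 CPM (SD, n = 3 each). The log2 fold change was 6.49 with a standard error of 0.63 and a 95% interval of 5.08 to 7.90 (adjusted p = 9.91e-06, edgeR). This was rank 106 of the 23677 genes tested, or rank 23572 by the treatment field. The size is less certain than the call, since it rests on 8 counts against 1045. From these sums the ratio was 92.1 with a counting interval of 46.6 to 214, which leaves out the spread between libraries. Without non-protoplasted replicate 2, which held 6 of the 8 counts, the log2 fold change was 7.69, and on log2(TPM + 1), which understates changes of low genes, it was 3.79.

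The spread between libraries of a group also differed among the 3 genes. In the libraries labelled protoplasted the coefficient of variation of the CPM was 47.5% for *BdSPL10*, 18.4% for *BdPDF1* and 14.4% for *BdHDG2-like*. Protoplasted replicate 2 was the lowest of its group for all 3 genes, and *BdSPL10* was 2.76 times as high in replicate 1 as in replicate 2. Of 9 other epidermal layer and hair cell genes, 7 were also lowest there within their group, a place that 29.1% of all genes tested had. The mesophyll gene *BdSTOMAGEN-1*, a secreted peptide gene used as a marker of the inner leaf tissue, had 14.9, 30.9 and 21.6 CPM in the libraries labelled protoplasted 1, 2 and 3 and was thus highest where the 3 genes were lowest. *BdLHCA6*, the other mesophyll marker, had 54.5, 50.8 and 58.8 CPM there. It was thus lowest in protoplasted replicate 2, like the 3 genes and unlike *BdSTOMAGEN-1*. A part of the tissue composition in these differences was not tested.

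Levels of different genes were compared per gene length, as TPM, which are counts divided by gene length and scaled to a common sum. How the deposited gene length was defined is not given, so it may be that of the whole gene or of the transcript. The order of the genes on this scale and their percentiles rest on that length. On this scale *BdPDF1* (gene length 1557 bases in the deposited table) had 447, 291 and 354 TPM in the libraries labelled protoplasted 1, 2 and 3 and 25.6, 31.5 and 24.0 in those labelled non-protoplasted. *BdHDG2-like* (5539 bases) had 19.9, 14.7 and 19.3 against 8.68, 12.5 and 13.4 TPM. *BdSPL10* (2412 bases) had 24.5, 8.37 and 15.0 against 0.128, 0.285 and 0 TPM. In the libraries labelled non-protoplasted the levels were ordered *BdPDF1*, *BdHDG2-like*, *BdSPL10*, and no neighbours in this order overlapped. In the libraries labelled protoplasted *BdPDF1* was again the highest, whereas *BdHDG2-like* (14.7 to 19.9 TPM) and *BdSPL10* (8.37 to 24.5 TPM) overlapped and could not be ordered. *BdPDF1* moved from the 76.5 to the 98.1 percentile of the mean TPM of the genes tested, *BdSPL10* from the 1.60 to the 64.7 percentile, and *BdHDG2-like* from 57.6 to 67.5. On the TPM scale the groups of *BdHDG2-like* did not overlap, unlike on the CPM scale.

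Ratios of counts within a library do not depend on the scaling of libraries, and 3 such ratios were compared between the groups. The log2 ratio of *BdPDF1* to *BdHDG2-like* counts was 2.66, 2.48 and 2.36 in the libraries labelled protoplasted and -0.27, -0.50 and -0.98 in those labelled non-protoplasted. Thus *BdPDF1* had more counts than *BdHDG2-like* in every library of the first group and fewer in every library of the second, a difference of 3.08 or 8.48-fold. These counts are not divided by gene length, so the side of 0 does not give the order of the levels. Per gene length *BdPDF1* was the higher in the second group as well, at 24.0 to 31.5 against 8.68 to 13.4 TPM. The log2 ratio of *BdSPL10* to *BdHDG2-like* counts was -0.90, -2.01 and -1.56 against -6.96, -6.54 and -10.3, a difference of 6.45 in which the last library had 0 counts of *BdSPL10* and rests on a pseudocount of 0.5. This difference was 4.62 with a pseudocount of 5 and 5.26 without non-protoplasted replicate 3. The log2 ratio of *BdPDF1* to *BdSPL10* was 3.56, 4.48 and 3.92 against 6.69, 6.04 and 9.32, a difference of -3.36, with the lower values in the libraries labelled protoplasted. It rests on the same library and was -1.55 with a pseudocount of 5 and -2.38 without non-protoplasted replicate 3, so that its size is uncertain. In each of these 3 pairs the groups did not overlap, as in 80.5% of the single genes tested. The two-sided exact permutation p was 0.1, also after adjustment over the 3 pairs, which is the smallest that 3 against 3 libraries can give. The 3 ratios restate the changes of the same 3 genes, and the third follows from the others, so they are not separate results.

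**Figure D3:**
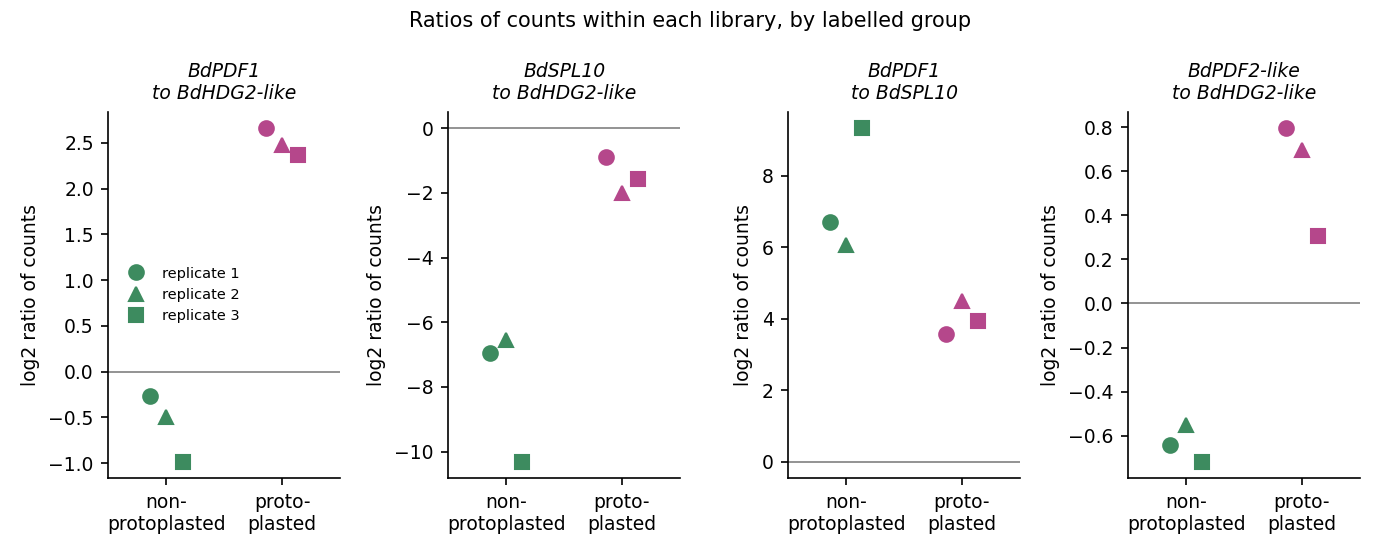
Log2 ratio of the counts of a pair of genes within each library (vertical axes, each with its own range), for the libraries labelled non-protoplasted (green) and protoplasted (magenta), with symbols for the replicate numbers and a line at equal counts. The groups were apart in all 4 panels, and the ratio of *BdPDF1* to *BdHDG2-like* lay below 0 in the first group and above 0 in the second. Counts are not divided by gene length, and per length *BdPDF1* was the higher in both groups.

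Among the other epidermal layer genes of the study's gene table, *BdPDF2-like* and *BdWOX9C-like1* changed in opposite directions. *BdPDF2-like*, a class IV homeodomain gene like *BdHDG2-like*, had 62.6, 45.8 and 46.0 CPM in the libraries labelled protoplasted and 13.6, 19.1 and 18.2 in those labelled non-protoplasted. It rose by 1.60 on the log2 scale with a standard error of 0.18 (edgeR adjusted p = 2.47e-05), and the groups did not overlap. The log2 ratio of *BdPDF2-like* to *BdHDG2-like* counts was 0.79, 0.70 and 0.31 against -0.64, -0.55 and -0.72, a difference of 1.24 (exact permutation p = 0.1, a pair added after seeing the data). The groups did not overlap in this ratio either. *BdWOX9C-like1*, a WUSCHEL-related homeobox gene, had 0, 2 and 0 counts in protoplasted replicates 1, 2 and 3 as labelled and 25, 27 and 30 in the libraries labelled non-protoplasted. It fell (adjusted p = 2.40e-05, edgeR), with a ratio of the summed counts of 0.0172 and a counting interval of 0.00205 to 0.0641.

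From the study's text and gene table, 7 other genes were grouped here as hair cell genes. Left out were *BdSLP1-like* genes that the study also linked to silica cells, and *BdSLP1-like8*, which its text assigned to neither cell type. All 7 rose in the libraries labelled protoplasted, where 38.7% of all genes tested and 72.5% of the 69 tested genes of the gene table were higher. *BdSPL5* and *BdWOX3B* passed the filter for testing only through these libraries, so that their direction was fixed beforehand. *BdSPL5*, another SPL gene, had 123, 51 and 70 counts in protoplasted replicates 1, 2 and 3 as labelled and 0, 0 and 1 in the non-protoplasted ones. It rose (adjusted p = 2.27e-05, edgeR) with a ratio of the summed counts of 172 and a counting interval of 30.6 to 6824. *BdWOX3B*, the homolog of the rice and maize *WOX3* genes of hair formation, had 120, 108 and 104 counts against 0, 1 and 1. It rose (adjusted p = 6.58e-07, edgeR) with a ratio of 117 and a counting interval of 32.2 to 971. All 3 of these transcription factor genes were at or close to 0 without digestion as labelled, with at most 6 counts in a library. *2cRR*, a two-component response regulator of the cytokinin signalling family, had a mean of 0.486 CPM in the libraries labelled non-protoplasted and 3.49 CPM in the others (log2 fold change 2.83, adjusted p = 1.26e-05, edgeR).

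*BdSLP1-like5*, *-like6*, *-like7* and *-like9* are homologs of sorghum *SILIPLANT1*, a gene thought to act in silica precipitation, and in the study they seemed specific to hair cells. They rose with log2 fold changes of 2.29, 4.57, 3.30 and 3.66 (edgeR, largest adjusted p 1.79e-06). The smallest change belonged to the gene with the highest level without digestion as labelled, *BdSLP1-like5*, at 24.6 to 32.9 CPM. Level and change did not run together throughout. *BdSLP1-like9* had a lower mean there than *BdSLP1-like6*, 3.44 against 3.81 CPM, and also the smaller change. Of the 9 other epidermal layer and hair cell genes, 9 were tested, 8 were higher and 1 was lower, with a median log2 fold change of 3.30 against 0.04 for all genes tested, of which 38.7% were higher and 38.3% lower. Of the 69 tested genes of the gene table as a whole, 50 were higher and 9 lower, with a median of 1.54. Of the 9 other epidermal layer and hair cell genes, 3 had at most 3 counts in every library of a group. These 3 passed the filter only through the other group, so that each could be called in 1 direction only. With them set to 3 counts the median was 3.29. The gene table rests on the literature and on single-cell data of protoplasts, and candidates of the latter kind were screened with these bulk libraries. The count of higher and lower genes is thus not independent evidence of a direction. In that screen the study kept only candidates not upregulated after protoplasting, with a fold change above 3 as the limit. For the bulk comparison itself it gave a log2 fold change of 3 as the limit. By the titles its hair cell marker *2cRR* was 7.09-fold higher, or 2.83 on the log2 scale. What this means for the labels was not tested.

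**Figure D4:**
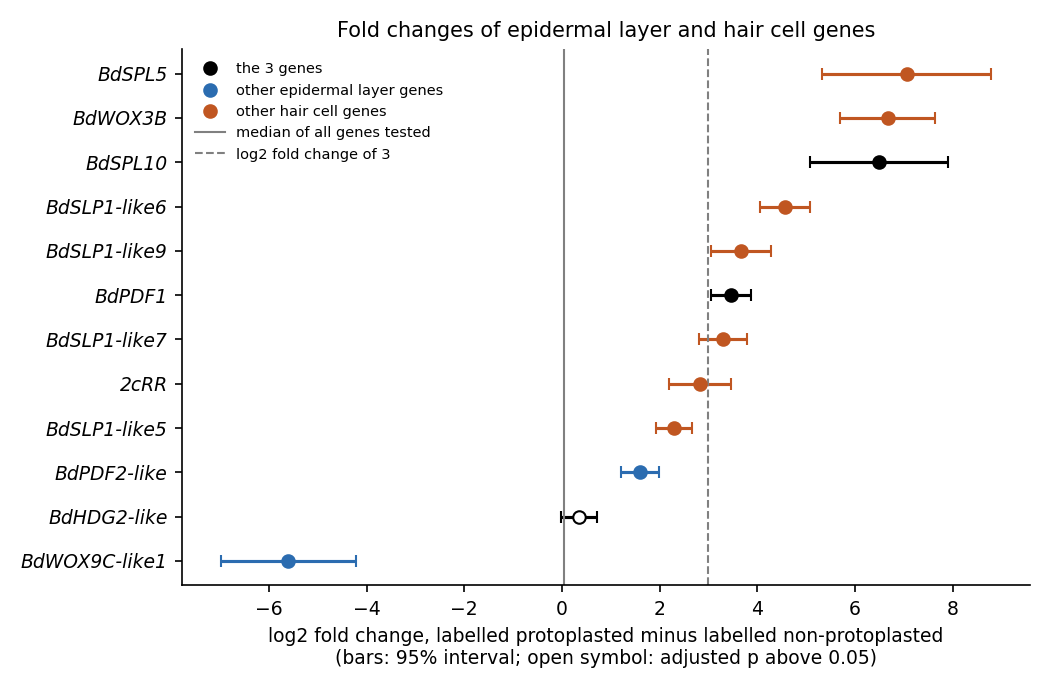
Log2 fold change, labelled protoplasted minus labelled non-protoplasted (horizontal axis, with 95% intervals) of *BdPDF1*, *BdHDG2-like* and *BdSPL10* (black) and the 9 other epidermal layer (blue) and hair cell (orange) genes, ordered by size. *BdHDG2-like* at 0.36 is the only open symbol (adjusted p above 0.05), *BdWOX9C-like1* is the only gene below 0, and *BdSPL10* at 6.49 lies beside *BdSPL5* and *BdWOX3B*.

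Markers of the other tissues of the zone were also mostly higher, to be read beside 38.7% of all genes called higher and 38.3% called lower. Of the 9 stomatal lineage markers 8 were higher and 0 lower, with a median log2 fold change of 1.70, and their summed level was 360 to 420 CPM against 122 to 144. Both mesophyll markers were higher (median 1.33), with a sum of 69.4 to 81.6 against 34.4 to 36.6 CPM. Of 20 shoot apex and early vasculature markers 16 were tested, 10 were higher and 2 lower (median 0.95), with a sum of 498 to 572 against 262 to 269 CPM. The summed level of the 9 epidermal layer and hair cell genes was 342 to 485 against 56.1 to 66.8 CPM. Among the genes called higher, *BdSPCH1*, *BdSPCH2*, *BdMUTE* and *BdWOX4* had at most 5 counts in each library labelled non-protoplasted. They passed the filter only through the other group. All 4 lists were thus higher in sum, but a few abundant genes carried much of the sums. The mean level of *BdXCP1-like* was 202 against 68.3 CPM and that of *BdFEA3* 134 against 32.9 in the shoot apex and vasculature list, in which *BdSLAH2* fell from 39.3 to 0.373 CPM (edgeR adjusted p = 4.95e-08). In the stomatal list *BdERL1* had 193 against 59.1 and *BdICE1* 136 against 28.8 CPM. These 5 genes were named after their values were seen. The lists' part in the changes of *BdPDF1* and *BdSPL10* was not tested.

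**Figure D5:**
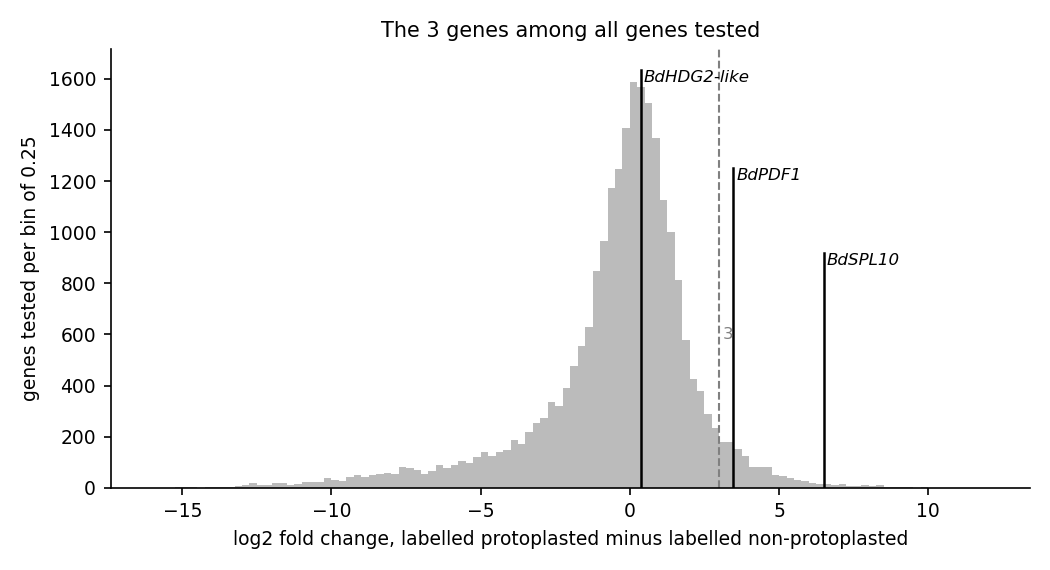
Number of genes tested (vertical axis) per bin of 0.25 in log2 fold change between the libraries labelled protoplasted and non-protoplasted (horizontal axis), with the values of *BdHDG2-like* (0.36), *BdPDF1* (3.46) and *BdSPL10* (6.49) as black lines and the log2 threshold of 3 dashed. *BdHDG2-like* lies near the peak, *BdPDF1* just beyond the threshold, above which 5.09% of the genes tested were called, and *BdSPL10* far out in the tail.

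The genes with names whose pattern over the 6 libraries was most like that of each of the 3 genes were found by the root mean square difference of log2 CPM, centred on each gene's mean, among 68 tested genes of the gene table. Nearest to *BdPDF1* were *BdPAN2*, a homolog of a maize receptor-like kinase gene of subsidiary cell formation, at 0.15, *BdSLP1-like7* at 0.22 and the stomatal bHLH gene *BdMUTE* at 0.24. Their own log2 fold changes were 3.40, 3.30 and 3.82. Nearest to *BdHDG2-like* were the Argonaute gene *BdAGO10* at 0.20, the class III homeodomain gene *BdPHB-like* at 0.24 and the auxin efflux carrier gene *BdPIN1a* at 0.27, with log2 fold changes of 0.61, 0.05 and 0.76. These are markers of shoot apex and early vasculature and not of the epidermis. Nearest to *BdSPL10* were *BdWOX3B* at 0.87, *BdSLP1-like6* at 0.96 and *BdSPL5* at 0.99, all hair cell genes, but at distances several times those of the other genes. Their log2 fold changes were 6.67, 4.57 and 7.06. The values of *BdSPL10*, *BdWOX3B* and *BdSPL5* in the libraries labelled non-protoplasted rest on at most 6 counts each. Among all genes tested, 15 were nearer to *BdPDF1* than *BdPAN2*, 772 nearer to *BdHDG2-like* than *BdAGO10*, and 79 nearer to *BdSPL10* than *BdWOX3B*, so that none of these likenesses was particular to the pair.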

How the data were processed

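Leaf developmental zones of wild type Bd21-3 were compared by bulk RNA-seq, with 3 libraries of each labelled condition. The authors sequenced directional polyA libraries with 75 bp reads, mapped them with bowtie2 to the Bd21-3 v1.1 genome and used summarizeOverlaps for the counts per gene. They deposited raw counts, a signal in reads per kilobase (count divided by gene length) and TPM, which brings the sums of that signal to one value in all libraries. TPM means per group were deposited too and not used. The counting mode, the use of strand and the definition of gene length are not given in the sources used here, so reads of overlapping genes may have been lost or exchanged.

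The analysis of the raw counts used edgeR 4.0.16 in R 4.3.3 (filterByExpr with a minimum count of 10, TMM, glmQLFit and glmQLFTest, a prior count of 0.125 for fold changes). Standard errors are approximate and were derived from the log2 fold change and the F statistic. Ratios of counts used a pseudocount of 0.5, and likeness a prior count of 2. DESeq2 1.42.0 and limma 3.58.1 served as alternatives, beside other normalizations and filters, a replicate block, each library left out and an exchange of the groups. The scripts were tested on simulated data in which few genes changed, as many up as down. That setting does not test the scaling of the real libraries. Replicates of a group differed by more than counting noise (chi-square per degree of freedom 6.50 to 43.3), and no libraries were merged.

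The genes named are the 3 genes, the other genes of the study's gene table grouped here as epidermal layer or hair cell genes, and the 3 most alike genes each. These genes and lists were chosen with earlier results of these data known. *BdSTOMAGEN-1* and *BdLHCA6* are given as mesophyll markers. Promoter and protein sequences were not analysed here.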

Additional observations from a re-analysis of the deposited data

How the results depend on the processing

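*BdPDF1* and *BdSPL10* kept their direction and an edgeR, DESeq2 or limma adjusted p under 0.05 in every alternative that gave a value, other than the exchange of the groups. The log2 fold change over the left-out libraries ran from 3.33 to 3.60 for *BdPDF1*, from 5.84 to 7.69 for *BdSPL10* and from 0.21 to 0.49 for *BdHDG2-like*. *BdSPL10* could not be fitted where at least 10 counts in every library were required. *BdHDG2-like* passed with library size only (0.73), upper-quartile normalization (0.66), limma-trend on log2(TPM + 1) (0.61) and on log2(TPM + 0.1) (0.65), all of which raised the median of all genes. It also passed without protoplasted replicate 2 (0.49), where that median moved by -0.02.

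The replicate numbers do not pair the libraries by any label. The deviations of same-numbered libraries correlated at 0.12, 0.04 and 0.08, and those of differently numbered ones at -0.10 to 0.05. Only protoplasted replicate 2 correlated more with another number than with its own, at 0.05 against 0.04. These small values do not settle whether the samples were paired. With the replicate block the log2 fold changes were 0.36 (edgeR adjusted p = 0.0712), 3.45 and 6.36 for *BdHDG2-like*, *BdPDF1* and *BdSPL10*, and the block changed no call of the 12 epidermal layer and hair cell genes, the only ones read from that fit.

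The ratio differences of *BdSPL10* to *BdHDG2-like* and *BdPDF1* to *BdSPL10* were 4.62 and -1.55 with a pseudocount of 5. They ran from 5.26 to 7.15 and from -4.02 to -2.38 over the left-out libraries, lowest in size without non-protoplasted replicate 3.

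The medians of the marker lists moved with the scaling: with library size only and upper-quartile normalization to 2.08 and 2.01 for stomatal, 1.33 and 1.26 for shoot apex and vasculature and 1.71 and 1.63 for mesophyll markers, and with log2(TPM + 0.1) to 1.99 and 1.18 for the first 2. At least 10 counts in every library gave 1.47 and 1.15 for these 2, and all genes with at least 1 count gave 0.73 for shoot apex and vasculature. The other epidermal layer and hair cell genes had 2.55 on log2(TPM + 1). Left-out libraries moved the shoot apex and vasculature median between 0.60 and 1.01. The cause of these shifts was not tested.

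Grouping by the treatment entry of the labels reverses every direction: -0.36, -3.46 and -6.49 for *BdHDG2-like*, *BdPDF1* and *BdSPL10*, with ratio differences of -3.08 (*BdPDF1* to *BdHDG2-like*), -6.45 (*BdSPL10* to *BdHDG2-like*), 3.36 (*BdPDF1* to *BdSPL10*) and -1.24 (*BdPDF2-like* to *BdHDG2-like*). It gives -1.60 for *BdPDF2-like*, 5.60 for *BdWOX9C-like1*, -7.06 for *BdSPL5*, -6.67 for *BdWOX3B*, -2.83 for *2cRR* and -2.29, -4.57, -3.30 and -3.66 for *BdSLP1-like5*, *-like6*, *-like7* and *-like9*. The list medians become -3.30 for the other epidermal layer and hair cell genes, -1.70, -0.95 and -1.33 for stomatal, shoot apex and vasculature, and mesophyll markers. Depth limits *BdSPL10*, *BdSPL5*, *BdWOX3B* and *BdWOX9C-like1*, whose lower group held at most 6 counts per library.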

Other observations

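Genes that overlap or lie close to each other could share reads, and the genes next to the 3 genes in the order of identifiers were therefore read from the same fit. The gene before *BdHDG2-like* fell with a log2 fold change of -3.42 (standard error 0.21, edgeR adjusted p = 4.83e-07), from 563 to 52.6 CPM, opposite to the value of *BdHDG2-like* and at a level far above it without digestion as labelled. The gene after it had at most 7 counts in a library. Both neighbours of *BdPDF1* were too low to be tested, with at most 6 and 0 counts. The genes before and after *BdSPL10* rose by 0.61 (adjusted p = 0.000511) and 2.16 (adjusted p = 0.000522, edgeR), the second from 0.433 to 1.96 CPM. No coordinates were used, and an exchange of reads between neighbours was not tested.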
